A study of Homo sapiens with 20 samples.

Results

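The 31 genes followed here make up the sterol regulatory element binding protein (SREBP) pathway of lipid synthesis, out of the 19593 genes that the deposited tables held. They were taken from a list of the pathway written out gene by gene. No measured value entered the rule, but the list was chosen with earlier results of these data known. The list held 5 regulators, 18 enzymes of sterol synthesis, the sterol carrier STARD4 and 7 enzymes of fatty acid synthesis and desaturation. Each gene was represented by its annotated transcript with the most reads over all 20 libraries. The cells were MM1.S, a human line of multiple myeloma that the labels call wild type, given for 2, 6 or 24 h either DMSO alone or 10 nM of dCBP-30, a compound that degrades the acetyltransferases CBP and p300. Treatments and time points had 3 libraries each, with separate DMSO libraries for 2, 6 and 24 h. Cells were given 4-thiouridine (4sU) in the last hour before harvest in all 6 of these groups, while a further 2 libraries of untreated MM1.S cells received no 4sU. Alkylated 4sU is sequenced as C where the genome has T, and a read with such a T>C conversion (T>C read) marks RNA made during that hour, and total reads count old and new RNA together. The question was how new and total transcripts of the sterol and of the fatty acid branch differed between dCBP-30 and DMSO at each time.

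SREBPs are membrane-bound transcription factors of the endoplasmic reticulum. SREBF1 and SREBF2 encode them, SCAP escorts them to the Golgi for cleavage when sterol is scarce, and INSIG1 and INSIG2 hold SCAP back when sterol is plentiful. The released factors bind sterol regulatory elements, commonly beside sites for NF-Y and SP1, and recruit coactivators that include CBP and p300. SREBP-2 is known mainly for genes of cholesterol synthesis and SREBP-1 for genes of fatty acid synthesis, and INSIG1 is itself a target of the pathway. A plasma cell builds a large endoplasmic reticulum, and membrane lipid is one of its needs.

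Short promoter windows of some members that the results turn on are shown first, chosen among members with a match. They were read from RefSeq promoters on GRCh38.p14, which reach from 250 bases before to 50 bases after a gene's start and were at hand for 27 of the 31 members. Capitals mark the matched letters, TCACNCCAC for the sterol regulatory element and CCAAT for the NF-Y box, which reads ATTGG where it lies on the opposite strand, and each run is written 5′ to 3′ on the strand of its gene.
SREBF2, sterol regulatory element, chr22:41832962-41832990, plus strand: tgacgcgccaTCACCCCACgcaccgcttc
SREBF2, NF-Y box, chr22:41832989-41833013, plus strand: tcgctcgcccATTGGctgagatgag
INSIG1, NF-Y box, chr7:155297698-155297722, plus strand: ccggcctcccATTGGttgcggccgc
FDPS, NF-Y box, chr1:155308734-155308758, plus strand: cggccagcagCCAATcagcgcggct
EBP, NF-Y box, chrX:48521728-48521752, plus strand: gagagtgtctATTGGttgggagcgg
DHCR7, NF-Y box, chr11:71448473-71448497, minus strand: ggctcctcgaCCAATcacggggcgc
SCD, NF-Y box, chr10:100346994-100347018, plus strand: ttgcgccgagCCAATggcaacggca
SCD, NF-Y box, chr10:100347037-100347061, plus strand: ttcccttcggCCAATgacgagccgg

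All but the first of these windows hold the NF-Y box. Over both strands, CCAAT was found in 24 of 37 promoters of members (64.9%), against 34.6% of all 35116 promoters of the same length. The SP1 box GGGCGG was in 33 of the 37 (89.2%), against 45.0% of all promoters, and the E-box CACGTG in 5 (13.5%), against 7.26%. The strict element TCACNCCAC was in the promoter of SREBF2 and of no other member, against 1.13% of all promoters. By gene, CCAAT was found for 20 of the 27 members. SREBF1, PMVK and FADS1, each lower at 24 h in both measures below, had no match, nor did CYP51A1, lower at 24 h in total reads alone. SCAP, INSIG2 and ELOVL6 had no match either. TM7SF2, whose total RNA rose, and STARD4 and FADS2 did have it. Whether the box goes with the response was not tested. These shares describe letters in a window and not bound sites, and several members have more than 1 promoter that overlap each other.

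Between 12439665 and 18727385 reads fell on genes in each library. The share of T>C reads was 5.99% to 8.62% in the 9 DMSO libraries and 4.71% to 6.86% in the dCBP-30 libraries, against 0.794% and 0.809% without 4sU (exact two-sided permutation test of DMSO against no 4sU, p = 0.0364, the smallest that 9 against 2 libraries allow). At 24 h T>C reads of dCBP-30 libraries carried fewer conversions each, 1.47 ± 0.043 (SD, n = 3) against 2.48 ± 0.025 in DMSO, whereas at 2 and 6 h the 4 groups lay between 2.17 and 2.24. The part of this gap in the 24 h results was not tested. All 9 plasma cell markers examined, SDC1 and MZB1 among them, were present, with medians over the DMSO libraries of 131 to 1558 RPM (reads per 1000000 total reads). Of the 15 markers of B, T, myeloid, epithelial cells and fibroblasts, CD3E alone exceeded 1 RPM, at a median of 4.56. The labels name triplicates without saying whether they were separate cultures, so the p-values measure the spread between these libraries, which may be technical. Levels below are RPM, relative to total reads scaled by TMM (a factor that removes shifts in RNA composition), and with a bulk assay fewer cells of a kind and less RNA per cell cannot be told apart.

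In DMSO the members differed widely in how much of their RNA was new. T>C reads were 15.3% of the reads of INSIG1, 17.98% of IDI1 and 28.7% of SC5D, but 2.66% of FDPS, 2.22% of PMVK and 2.08% of TM7SF2, with the 9 DMSO libraries pooled. The median over the 27 members tested was 7.22%, against 11.1% over all 10083 genes tested. A short counted stretch holds few T positions, and FDPS was counted on 56 bases with 12 T positions. In DMSO at 2 h T>C reads of FDPS averaged 0.892 conversions on those positions, so some were converted outside them. Shares of T>C reads cannot be read as turnover alone. Without 4sU the share was highest for FDFT1 at 4.13%, ELOVL6 at 3.19% and SREBF1 at 2.16% among the genes plotted.

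**Figure D1:**
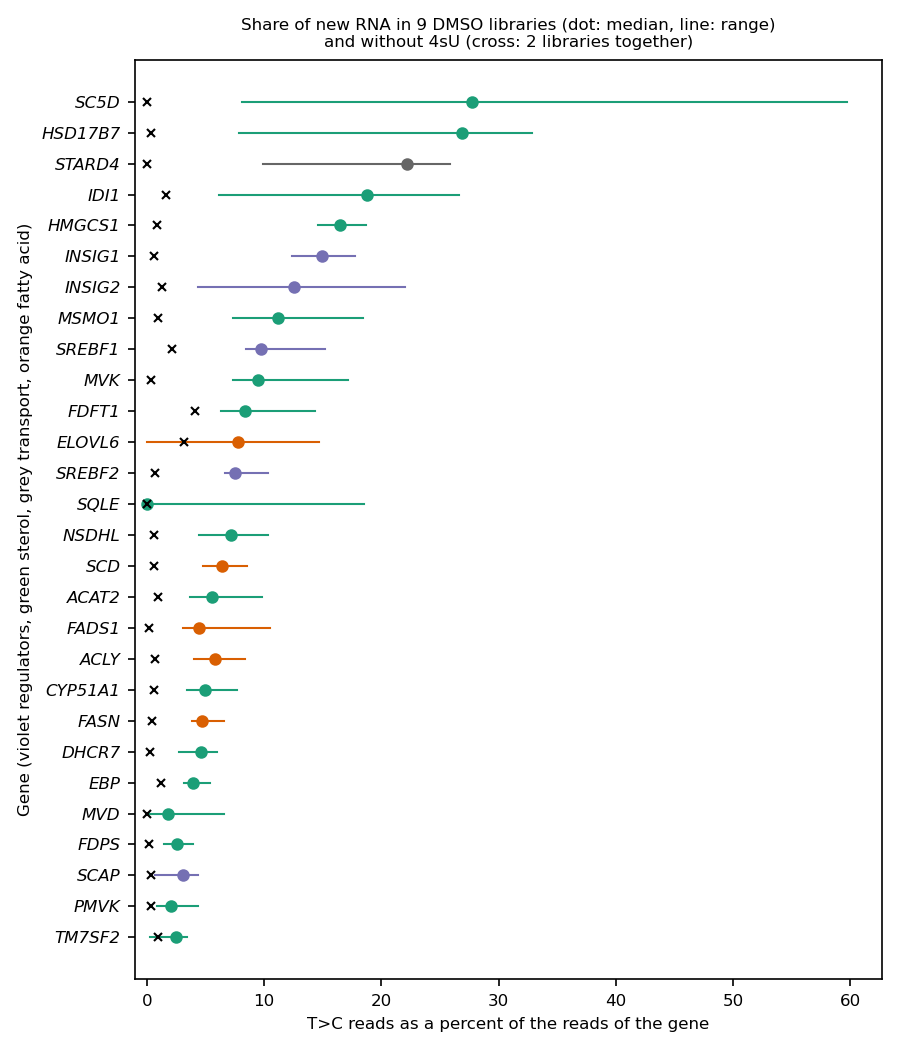
T>C reads as a percent of all reads of each member with at least 200 reads in DMSO (rows, ordered by the pooled share), as the median (dot) and range (line) of 9 DMSO libraries, with the 2 libraries without 4sU pooled (cross). INSIG1 sat at 12.4% to 17.8% in every DMSO library, while SC5D spread from 8.14% to 59.7%, and the crosses of FDFT1, ELOVL6 and SREBF1 lie farthest right.

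A gene was called lower or higher at an adjusted p under 0.05 and a change of more than 2-fold. In T>C reads, 27 of the 31 members had enough reads to be tested. Calls at 2 h went to 2 members downward and 1 upward, where the background over all 10083 genes was 7.14% lower and 1.66% higher. At 6 h the calls were 5 downward and 0 upward, against 17.1% and 2.36% of all genes, and after 24 h of dCBP-30 they were 15 downward and 0 upward, against 31.2% and 2.18%. No member reached an unadjusted p under 0.05 upward at 6 or 24 h in the edgeR test, and DESeq2 called 0 higher there too. Over the 3 times the median log2 fold change of the members in T>C reads was -0.09, -0.57 and -1.40, beside 0.05, -0.27 and -0.69 over all genes tested. When libraries were scaled by T>C reads in place of total reads, the median of all genes at 24 h became -0.04 and that of the members -0.77, and 10 of the 15 stayed called, without ACLY, IDI1, MVK, NSDHL and SREBF2.

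In total reads 29 members were tested, and the change came later. At 2 h 0 members were called (background 1.25% lower and 0.457% higher), with 3 at an unadjusted p under 0.05 by edgeR and 0 called by DESeq2. At 6 h again 0 were called (background 8.67% lower and 7.47% higher). There 12 had an unadjusted p under 0.05, 7 of them downward, DESeq2 called 0, and the whole-table median was 0.02. At 24 h 13 members were lower and 1 was higher, against 16.1% and 15.0% of all genes, with a median log2 fold change of -0.79 for the members and 0.05 for all genes. Without TMM factors the median of all genes at 24 h moved to 0.58 and the members split into 8 lower and 3 higher, so the number of calls in total RNA depends on that scaling. ACAT2, CYP51A1, FDPS, NSDHL and SQLE were then no longer called lower, and SC5D and STARD4 were called higher beside TM7SF2. LSS and ACACA, which encode lanosterol synthase and acetyl-CoA carboxylase, were untested in both measures with 81 and 6 reads in the 18 labelled libraries, and all 5 windows of 100 bases searched at the end of each one's counted stretch had a copy on an alternate contig of hg38. The part of those copies in the low counts was not tested. SQLE and FADS2 were untested in T>C reads.

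The spread between libraries gave the same order of times. In T>C reads the dCBP-30 libraries were all below the DMSO libraries for 4 of 27 members at 2 h (14.6% of all genes tested) and all above for 6 (11.6%). At 6 h they were all below for 14 members (28.2%) and all above for 0 (8.57%), and at 24 h all below for 19 (45.8%) and all above for 0 (6.46%). In total reads 5 of 29 members were all below and 3 all above at 2 h (10.1% and 9.85%), 7 and 6 at 6 h (24.3% and 23.7%), and 20 and 2 at 24 h (33.0% and 34.5%).

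**Figure D2:**
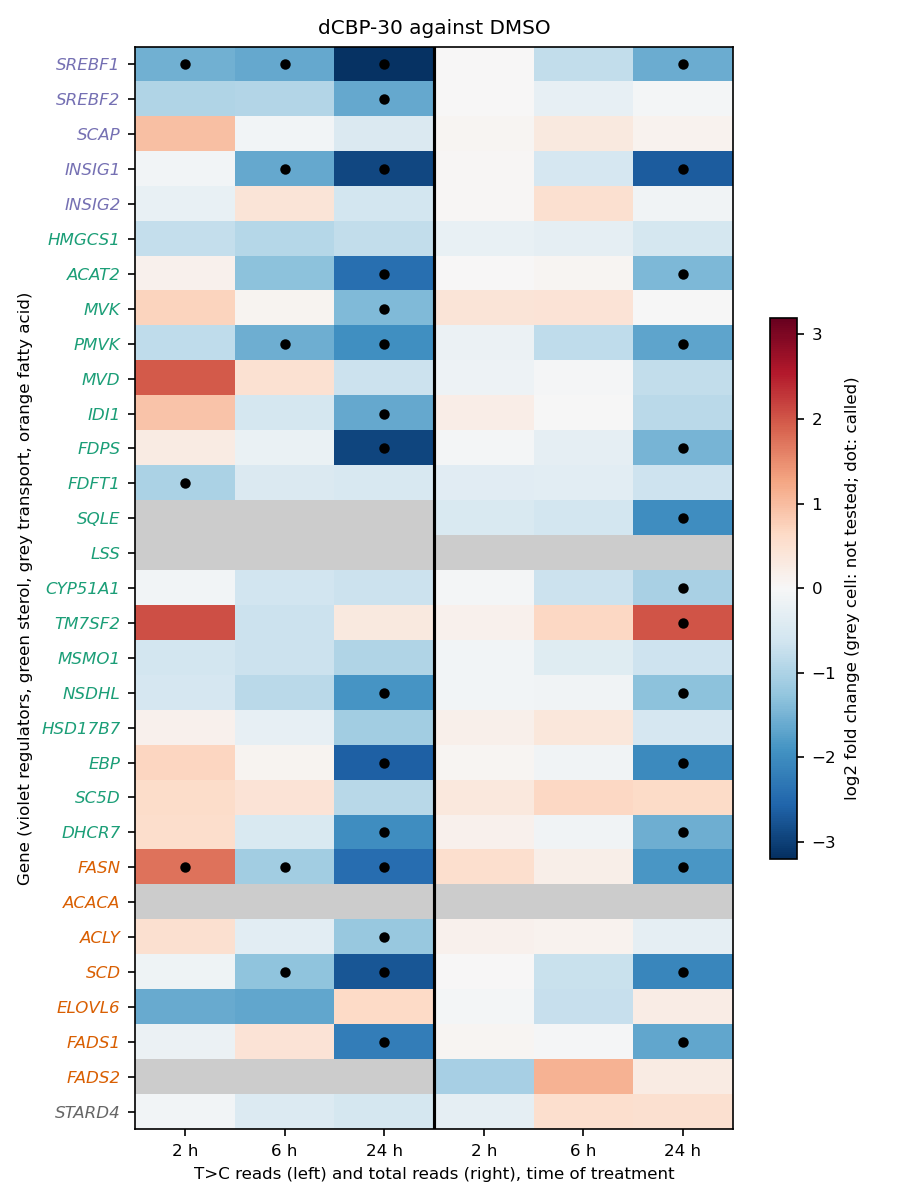
Log2 fold change of dCBP-30 against DMSO (colour) for the 31 members (rows, coloured by branch) in T>C reads (left 3 columns) and total reads (right 3 columns) at 2, 6 and 24 h; black dots mark called genes and grey cells genes not tested. The T>C columns hold 3, 5 and 15 dots and the total columns 0, 0 and 14, with FASN red at 2 h and blue later, and TM7SF2 the 1 red dot among the total reads.

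Among the regulators, SREBF1 was lower in new RNA from the first time point. It was counted on the 3′ untranslated region of ENST00000261646.11 (hg38, chr17:17811334-17812621, minus strand), 120 bases of which lie opposite RAI1. Its T>C RPM were 2.76, 2.31 and 1.00 with dCBP-30 against 5.62, 4.72 and 7.02 with DMSO at 2 h, then 2.10, 2.498 and 1.65 against 7.86, 5.83 and 5.76 at 6 h. At 24 h they were 0.492, 1.26 and 1.72 against 10.6, 10.7 and 10.1. At each time the highest dCBP-30 value was under the lowest DMSO value. The fitted decrease was 2.89-fold at 2 h (log2 -1.53 ± 0.38 SE, adjusted p = 0.00275), 3.10-fold at 6 h (-1.63 ± 0.37, 0.000442) and 8.97-fold at 24 h (-3.16 ± 0.39, 9.90e-10). Without the dCBP-30 library of replicate 3 at 2 h the first of these was -1.19 with an adjusted p of 0.0581. In that group T>C reads were 3.08% of the reads of SREBF1, not far above the 2.16% without 4sU. Total SREBF1 was 60.0, 73.5 and 55.2 RPM against 58.3, 55.8 and 72.1 at 2 h, with overlapping groups, and 30.3, 32.5 and 52.2 against 75.6, 62.6 and 59.2 at 6 h (log2 -0.78 ± 0.17, adjusted p = 0.000673). By 24 h it had come down to 23.2, 26.6 and 24.9 against 82.2, 70.8 and 71.1 (-1.58 ± 0.17, 2.22e-08).

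SREBF2 was lower in new RNA but not in total RNA. T>C RPM of this gene were 4.92, 6.34 and 3.88 with dCBP-30 against 8.004, 9.80 and 11.6 with DMSO at 2 h, and 5.03, 4.50 and 5.64 against 10.6, 9.05 and 9.43 at 6 h. Both changes passed the adjusted p but fell short of 2-fold (log2 -0.96 ± 0.28, adjusted p = 0.0136, and -0.94 ± 0.27, 0.00708). At 24 h T>C RPM of 4.87, 3.52 and 5.69 against 17.9, 12.6 and 13.3 gave a 3.11-fold decrease (-1.64 ± 0.27, 1.51e-06), which was -0.998 when scaled by T>C reads. The groups were apart at all 3 times. Total SREBF2 overlapped between the treatments throughout, at 120.0, 161 and 123 against 115, 131 and 156 RPM at 2 h, 105, 103 and 141 against 137, 137 and 142 at 6 h, and 153, 149 and 164 against 173, 157 and 159.9 at 24 h. Its fitted change at 24 h was -0.07 ± 0.13 (adjusted p = 0.642). The transcript used for SREBF2 has an annotated 3′ untranslated region in 12 segments over chr22:41880910-41907306 (hg38, plus strand).

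INSIG1, the sterol-responsive anchor of SCAP, had no detectable change at 2 h and a large one later. Its T>C RPM at 2 h were 88.2, 113 and 102 against 105, 104 and 113, and the groups overlapped (log2 -0.09 ± 0.14, adjusted p = 0.793). At 6 h they were 33.3, 36.4 and 36.0 against 108, 102 and 121, and at 24 h 17.5, 22.0 and 21.9 against 147, 158 and 153. These were decreases of 3.14-fold (-1.65 ± 0.14, 1.62e-14) and 7.47-fold (-2.90 ± 0.15, 8.19e-24), with all dCBP-30 libraries far below all DMSO libraries. Total INSIG1 followed, from 769.9, 913 and 775 against 741, 841 and 792 RPM at 2 h to 504, 536 and 538 against 714, 768 and 814 at 6 h (-0.54 ± 0.10, 6.33e-05). At 24 h it stood at 135, 136 and 143 against 859, 892 and 861, a 6.32-fold decrease (-2.66 ± 0.10, 4.84e-17). INSIG1 rests on 319 to 2657 T>C reads per labelled library and was read from chr7:155308271-155310235 (hg38, plus strand, ENST00000340368.9).

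SCAP and INSIG2 were not called at any time in either measure. The transcript used for SCAP has an annotated 3′ untranslated region in 17 segments over chr3:47413713-47426055 (hg38, minus strand). T>C RPM of SCAP were 4.23, 4.82 and 3.38 against 3.46, 1.90 and 1.05 at 2 h, 2.45, 1.11 and 2.88 against 4.53, 1.54 and 0.746 at 6 h, and 3.61, 3.41 and 4.13 against 6.48, 3.82 and 5.15 at 24 h, and the groups overlapped each time. Total SCAP was 124, 155 and 105 against 112, 122 and 136 RPM, 125, 128 and 219 against 140.1, 123 and 115, and 159, 149 and 139.7 against 148, 119 and 144. INSIG2, the second SCAP anchor, had T>C RPM of 0.518, 1.45 and 1.56 against 3.08, 0.635 and 0.523, then 3.65, 1.61 and 1.41 against 1.13, 1.21 and 2.65, then 0.985, 1.70 and 1.18 against 1.75, 2.21 and 1.89. This gene had few T>C reads, and its SE of 0.61 to 0.64 on the log2 scale leaves a 2-fold change undetectable. Total INSIG2 was 12.4, 10.4 and 16.6 against 14.2, 12.5 and 11.9 RPM at 2 h, 16.8, 17.4 and 12.9 against 9.56, 11.4 and 12.005 at 6 h (log2 0.52 ± 0.21, adjusted p = 0.0491) and 9.96, 13.5 and 11.5 against 13.9, 12.2 and 11.4 at 24 h. The 2 INSIG genes thus had values in opposite directions at 6 h in total RNA, and the difference between them was not tested.

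**Figure D3:**
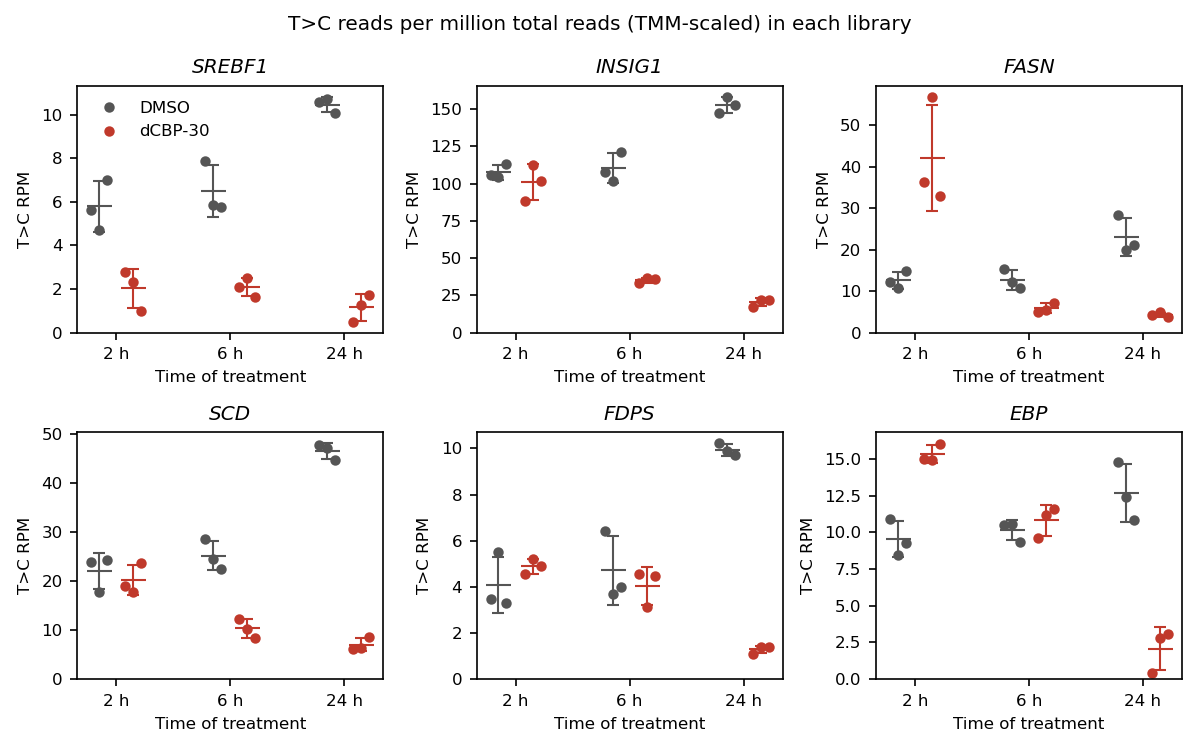
T>C RPM in each library (points) with the mean and SD of 3 libraries (bar) for 6 members under DMSO (grey) and dCBP-30 (red) at 2, 6 and 24 h, each panel on its own linear axis from 0. SREBF1 is lower with dCBP-30 at all times, INSIG1 and SCD from 6 h, FDPS and EBP at 24 h, and FASN lies at 33.0 to 56.8 at 2 h, above its DMSO libraries, and below them later.

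Of the 18 enzymes of the sterol branch 16 were tested in T>C reads, and 1 was called lower at 2 h, 1 at 6 h and 8 at 24 h, where 7.14%, 17.1% and 31.2% of all genes were called lower. In the first steps from acetyl-CoA to mevalonate, ACAT2 (acetoacetyl-CoA thiolase) had T>C RPM of 4.92, 0.264 and 3.005 against 1.69, 3.31 and 2.39 at 2 h and of 1.497, 0.722 and 1.23 against 1.56, 2.28 and 4.68 at 6 h. At 24 h they were 1.75, 0.275 and 0.537 against 4.99, 3.40 and 5.29 (log2 -2.40 ± 0.60, adjusted p = 0.000971), with no overlap between the groups. That value was -3.46 without the dCBP-30 library of replicate 1 at 24 h and -1.99 without that of replicate 2, and the call was lost with DESeq2 on T>C size factors (-1.67, adjusted p = 0.0543). Total ACAT2 stayed between 30.2 and 57.9 RPM in all 12 libraries of 2 and 6 h and was 18.6, 22.6 and 24.2 against 58.7, 60.9 and 58.6 at 24 h (-1.45 ± 0.19, 3.61e-07). All 283 bases counted for ACAT2 lie opposite TCP1. The library kit keeps strand, but whether the counting used it is not given in the sources used here, and reads of TCP1 would be included if it did not. HMGCS1, which makes HMG-CoA, had log2 values of -0.75, -0.90 and -0.79 in T>C reads, and those of 6 and 24 h passed the adjusted p (0.0293 and 0.0370) without reaching 2-fold.

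Of the mevalonate kinases, PMVK (phosphomevalonate kinase, ENST00000368467.4, chr1:154924740-154925128, hg38, minus strand) was the 1 sterol enzyme called lower at 6 h in T>C reads. T>C RPM of this gene were 5.003, 1.91 and 2.25 against 6.23, 5.57 and 4.03 at 2 h, 1.56, 1.33 and 2.15 against 5.73, 2.28 and 6.99 at 6 h, and 1.86, 1.87 and 2.09 against 9.65, 5.96 and 6.96 at 24 h. The groups were apart at 6 h (log2 -1.57 ± 0.41, adjusted p = 0.00203) and 24 h (-1.95 ± 0.40, 5.39e-05). Total PMVK fell in step, from 269, 256 and 262 against 302, 307 and 293 RPM at 2 h to 169, 162 and 157 against 311, 272 and 269 at 6 h (-0.80 ± 0.11, 1.01e-06) and 70.7, 58.7 and 79.9 against 222, 222 and 234 at 24 h (-1.69 ± 0.11, 1.09e-12). MVK (mevalonate kinase) was called lower at 24 h in T>C reads alone (-1.40 ± 0.44, 0.00848). That call was lost without the dCBP-30 library of replicate 2 at 24 h (-1.10, 0.0714), and total MVK at 24 h was -0.02. At 6 h total MVK was higher (0.43), past the adjusted p but under 2-fold. MVD, the decarboxylase, had at most 13 T>C reads in a labelled library and total reads of -0.79 ± 0.22 (0.00372) at 24 h, under 2-fold.

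In the steps that build the isoprenoid chain, IDI1 (isopentenyl diphosphate isomerase) and FDPS (farnesyl diphosphate synthase) were called lower at 24 h in new RNA. FDPS had T>C RPM of 4.57, 5.21 and 4.88 against 3.46, 5.50 and 3.29 at 2 h and 4.55, 3.11 and 4.47 against 6.44, 3.69 and 4.00 at 6 h, and both pairs of groups overlapped. At 24 h it had 1.09, 1.37 and 1.39 against 10.2, 9.90 and 9.72, a 7.68-fold decrease (log2 -2.94 ± 0.36, adjusted p = 6.25e-10). Total FDPS was 236, 191 and 217 against 228, 218 and 225 RPM at 2 h, 194, 199 and 174 against 239, 227 and 224 at 6 h, and 98.4, 94.2 and 87.2 against 258, 262 and 270.1 at 24 h (-1.50 ± 0.10, 3.37e-12). The 56 bases counted for FDPS (chr1:155320610-155320665, hg38, plus strand) lie wholly opposite RUSC1-AS1, with the same limit as for ACAT2. IDI1 had -1.64 ± 0.34 in T>C reads (7.70e-05) and -0.85 ± 0.20 in total reads (0.000705), the latter under 2-fold.

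FDFT1 (squalene synthase), which commits farnesyl diphosphate to sterols, was called lower at 2 h and at no later time. Its T>C RPM were 4.92, 3.43 and 8.20 against 14.9, 8.67 and 9.71 at 2 h, where the groups were just apart (log2 -1.002 ± 0.32, adjusted p = 0.0285). At 6 h they were 7.19, 6.49 and 4.78 against 5.38, 12.1 and 8.07, and at 24 h 4.43, 8.90 and 8.42 against 6.74, 12.3 and 11.9, with overlap at both. The call at 2 h sat on the 2-fold edge and was lost without the dCBP-30 library of replicate 1 (-0.93, 0.116) or 2 (-0.75, 0.202) or the DMSO library of replicate 1 (-0.73, 0.234), and with the T>C level of the unlabelled libraries subtracted (-1.71, 0.172). Total FDFT1 was 84.0, 75.9 and 97.0 against 104, 114 and 112 RPM at 2 h, 87.4, 83.4 and 48.3 against 84.6, 93.7 and 99.8 at 6 h, and 74.2, 83.8 and 79.0 against 95.6, 147 and 133 at 24 h (-0.66, 0.00162). SQLE (squalene epoxidase), with 412 reads in the 18 labelled libraries, was called lower in total reads at 24 h (-1.996, 0.0228), a call lost without the dCBP-30 library of replicate 3 (0.0688) or the DMSO library of replicate 1 (0.1002) of that time.

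After squalene, the members split. NSDHL, EBP and DHCR7, which remove methyl groups, shift a double bond and reduce the last one on the way to cholesterol, were called lower at 24 h in both measures. EBP (ENST00000495186.6, chrX:48528458-48528716, hg38, plus strand) had T>C RPM of 15.0, 14.9 and 16.0 against 10.9, 8.46 and 9.26 at 2 h, where every dCBP-30 library was above every DMSO library without passing the test (log2 0.68 ± 0.29, adjusted p = 0.133). At 6 h it had 9.64, 11.2 and 11.6 against 10.5, 10.6 and 9.36, and at 24 h 0.383, 2.80 and 3.06 against 14.8, 12.4 and 10.9, a 6.07-fold decrease (-2.60 ± 0.32, 6.35e-10). Total EBP was 294, 228 and 297 against 240.0, 268 and 281 RPM at 2 h, 309, 247 and 213 against 256, 283 and 288 at 6 h, and 65.1, 73.3 and 71.4 against 276, 315 and 264 at 24 h (-2.03 ± 0.13, 1.79e-12). The order of events for EBP was thus overlap at 6 h in both measures and a clear gap at 24 h in both.

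DHCR7 had T>C RPM of 5.78, 3.96 and 4.51 against 3.16, 2.61 and 3.88 at 2 h, 1.92, 2.61 and 6.01 against 6.79, 4.76 and 3.26 at 6 h, and 2.35, 1.70 and 0.268 against 6.15, 5.61 and 5.44 at 24 h (log2 -1.99 ± 0.45, adjusted p = 0.000213). Total DHCR7 was 90.0, 115 and 96.2 against 88.9, 96.4 and 86.9 RPM, 88.7, 106 and 105 against 113, 103 and 109.9, and at 24 h 46.6, 41.7 and 29.5 against 112, 123 and 116 (-1.57 ± 0.14, 4.55e-10). DHCR7 was called at 24 h and not before. The T>C call was lost with DESeq2 on T>C size factors (-1.21, adjusted p = 0.0547). NSDHL had T>C RPM of 2.67, 1.52 and 2.38 against 2.00, 4.16 and 3.36 at 2 h, 1.32, 0.999 and 1.23 against 1.91, 2.35 and 2.17 at 6 h, and 2.13, 0.604 and 0.697 against 3.76, 5.43 and 3.63 at 24 h (-1.89 ± 0.50, 0.00150). That value was -2.70 without the dCBP-30 library of replicate 1 at 24 h. The call was lost when scaled by T>C reads (-1.25, adjusted p = 0.0518) and with DESeq2 on T>C size factors (-1.15, 0.0620). Total RPM of NSDHL were 45.7, 36.0 and 48.3 against 45.3, 52.2 and 39.4, then 40.2, 37.9 and 34.0 against 33.6, 42.8 and 44.6, then 22.9, 20.9 and 14.7 against 42.0, 52.7 and 50.8 (-1.32 ± 0.17, 3.60e-07). Without TMM factors this last decrease was -0.79, under 2-fold. CYP51A1, the lanosterol demethylase, was called lower at 24 h in total reads alone (-1.05 ± 0.13, 2.18e-07), with -0.68 in T>C reads (0.103). That call fell under 2-fold without the dCBP-30 library of replicate 1 (-0.95), and 1506 of its counted bases are shared with other annotated genes on the same strand.

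TM7SF2, which encodes a sterol C14 reductase, was the 1 member called higher in total RNA with TMM factors. Its total RPM were 60.8, 60.2 and 41.7 against 46.2, 51.4 and 51.3 at 2 h, 84.6, 88.0 and 97.1 against 64.5, 54.4 and 52.4 at 6 h (log2 0.66 ± 0.14, adjusted p = 0.000452, under 2-fold) and 166, 167 and 179 against 47.8, 35.9 and 42.2 at 24 h, a 4.06-fold increase (2.02 ± 0.14, 6.46e-12). At 24 h the groups were far apart. In T>C reads it had 2.76, 1.19 and 1.13 RPM against 0.539, 0.494 and 0.149 at 2 h (2.07 ± 0.74, 0.0591), 0.539, 1.17 and 0.797 against 1.34, 1.34 and 1.36 at 6 h, and 1.31, 1.59 and 1.93 against 1.62, 1.01 and 1.23 at 24 h (0.32 ± 0.66, 0.748). Its share of T>C reads was 0.794% in DMSO at 2 h, and 0.938% and 0.948% with dCBP-30 at 6 and 24 h, at the level of the 0.908% seen without 4sU, so no new TM7SF2 RNA was detectable in those groups at this depth. The transcript used for TM7SF2 (ENST00000529601.5) has an annotated 3′ untranslated region in 7 segments over chr11:65113241-65116384 (hg38, plus strand). The remaining enzymes MSMO1, HSD17B7 and SC5D were not called. MSMO1 had -0.97 ± 0.31 (0.0103) in T>C reads at 24 h, just under 2-fold, 47.8% of the reads of HSD17B7 mapped to more than 1 place, and SC5D had -0.90 in T>C and 0.60 in total reads (0.252 and 0.0635). Without TMM factors SC5D was called higher in total reads at 24 h.

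STARD4, a carrier that moves cholesterol between membranes, was not called either. T>C RPM of this gene were 1.29, 1.72 and 2.00 against 3.08, 0.987 and 1.34 at 2 h, 0.958, 1.78 and 1.47 against 1.70, 1.47 and 2.51 at 6 h, and 1.70, 1.15 and 1.34 against 2.14, 1.73 and 2.39 at 24 h. Its total RPM were 7.25, 10.2 and 10.3 against 13.9, 9.94 and 10.5, 16.8, 13.4 and 16.5 against 11.8, 6.23 and 14.1, and 11.2, 11.6 and 13.6 against 8.94, 6.68 and 9.93. The 24 h groups did not overlap in either measure, T>C reads being lower with dCBP-30 (log2 -0.57, adjusted p = 0.447) and total reads higher (0.51, 0.0862), and neither passed the test. Without TMM factors the total reads of STARD4 were called higher at 24 h.

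In the fatty acid branch, FASN (fatty acid synthase, ENST00000306749.4, chr17:82078338-82079142, hg38, minus strand) rose in new RNA at 2 h and was lower afterwards. Its T>C RPM were 36.4, 56.8 and 33.0 with dCBP-30 against 12.3, 10.7 and 14.9 with DMSO at 2 h, a 3.33-fold increase (log2 1.74 ± 0.22, adjusted p = 5.78e-09). At 6 h they were 4.97, 5.55 and 7.23 against 15.4, 12.1 and 10.7, a 2.16-fold decrease (-1.11 ± 0.23, 0.000103), and at 24 h 4.16, 4.89 and 3.81 against 28.3, 19.9 and 21.1, a 5.38-fold decrease (-2.43 ± 0.23, 3.40e-13). The groups did not overlap at any time, above DMSO at 2 h and below it at 6 and 24 h. The share of T>C reads of FASN was 9.99% ± 0.20 (SD, n = 3) against 4.31% ± 0.46 at 2 h. The value at 2 h stayed between 1.46 and 1.89 when any 1 of the 18 labelled libraries was left out. The call at 6 h was on the 2-fold edge: it was -0.998 without the dCBP-30 library of replicate 1, -0.95 without the DMSO library of replicate 1, and -0.80 when scaled by T>C reads.

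Total FASN was 359, 566 and 339 RPM against 279, 282 and 315 at 2 h, where the groups were apart and the test was not passed (log2 0.53 ± 0.18, adjusted p = 0.105). It was 266, 285 and 438 against 314, 287 and 260.3 at 6 h, with overlap (0.20 ± 0.18, 0.389), and 96.0, 109 and 99.7 against 428, 315 and 371 at 24 h, a 3.66-fold decrease (-1.87 ± 0.18, 8.23e-09). New FASN RNA at 6 h was therefore already lower while total FASN RNA still overlapped with DMSO.

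SCD (stearoyl-CoA desaturase, ENST00000370355.3, chr10:100360934-100364826, hg38, plus strand) did not share the rise of FASN. T>C RPM of this gene at 2 h were 19.0, 17.8 and 23.6 against 23.9, 17.8 and 24.3, with overlap (log2 -0.13 ± 0.19, adjusted p = 0.785). At 6 h they were 12.3, 10.2 and 8.46 against 28.5, 24.5 and 22.5 (-1.29 ± 0.20, 3.42e-07) and at 24 h 6.13, 6.43 and 8.48 against 47.7, 47.1 and 44.7, a 6.63-fold decrease (-2.73 ± 0.20, 3.37e-17). Total SCD went from 380.4, 371 and 416 against 372, 374 and 409.5 RPM at 2 h to 256, 264 and 233 against 384, 427 and 418 at 6 h (-0.71 ± 0.10, 3.95e-06) and 124, 125 and 148 against 601, 561 and 525 at 24 h (-2.09 ± 0.10, 1.00e-14). New and total SCD RNA were both apart from DMSO from 6 h.

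Of the other fatty acid enzymes, FADS1 (delta-5 desaturase) was called lower at 24 h in both measures. Its T>C RPM were 1.12, 1.85 and 2.57 against 1.15, 2.12 and 3.06 at 2 h, 3.65, 1.83 and 2.27 against 1.98, 2.15 and 1.63 at 6 h, and 1.75, 1.32 and 1.34 against 9.005, 6.499 and 4.93 at 24 h (log2 -2.21 ± 0.45, adjusted p = 5.64e-05). Its total RPM were 49.5, 50.8 and 55.0 against 37.2, 50.1 and 61.1, 48.6, 39.2 and 52.5 against 44.9, 48.7 and 49.99, and 27.6, 25.4 and 20.6 against 85.8, 76.0 and 73.2 (-1.67 ± 0.16, 2.04e-09). In T>C reads the dCBP-30 libraries of FADS1 at 24 h lay within the range of the DMSO libraries of 2 h, and the DMSO libraries of 24 h lay above it. ACLY, which makes cytosolic acetyl-CoA from citrate for both branches, was called lower at 24 h in T>C reads (-1.21 ± 0.26, 0.000144) and had -0.29 ± 0.09 in total reads (0.00813), which without TMM factors became 0.23. ELOVL6, an elongase, was not called in either measure and had 0 to 21 T>C reads in a labelled library. FADS2 (delta-6 desaturase), with 391 reads in the 18 labelled libraries, was not called in total reads.

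**Figure D4:**
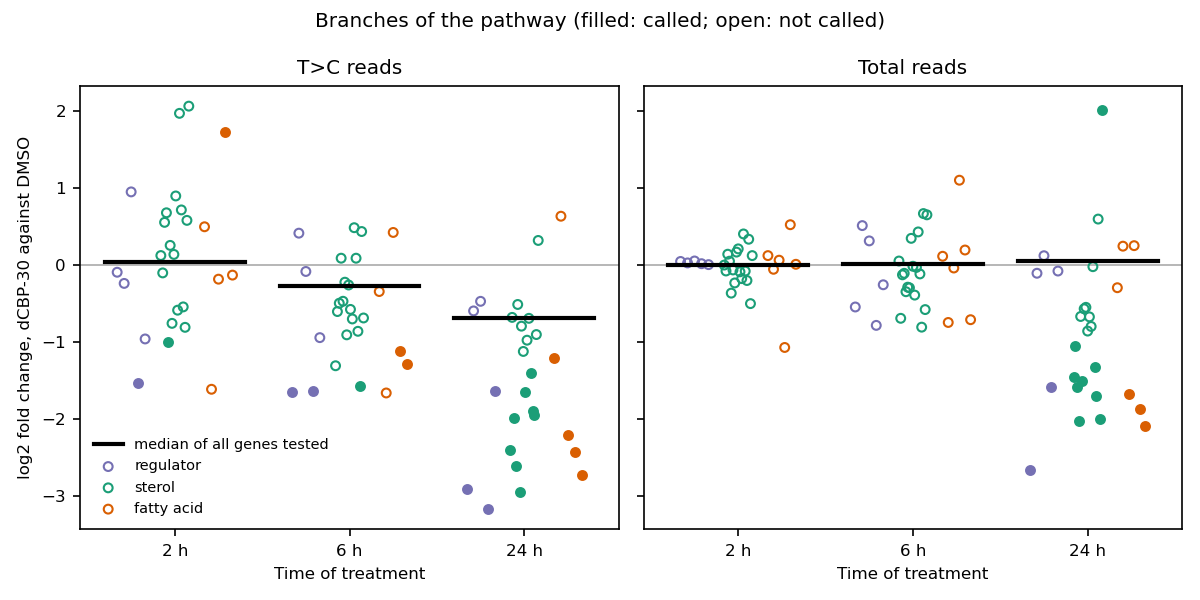
Log2 fold change of each tested regulator (violet), sterol enzyme (green) and fatty acid enzyme (orange) in T>C reads (left) and total reads (right) at 2, 6 and 24 h, filled where called, with the median of all genes tested as a black line; STARD4 is not drawn. At 24 h in T>C reads the fatty acid median was -2.21, the sterol median -1.26 and that of all genes -0.69.

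The branches are set side by side by their medians, counts and sums. In T>C reads the median log2 fold change of the 16 tested sterol enzymes went 0.20, -0.53 and -1.26 over the 3 times, and that of the 5 tested fatty acid enzymes -0.13, -1.11 and -2.21. At 24 h 8 of 16 sterol and 4 of 5 fatty acid enzymes were called lower in T>C reads, beside 31.2% of all genes. In total reads the counts were 8 of 17 and 3 of 6, beside 16.1% of all genes, and the medians were -0.85 and -0.98. Summed over a branch, the fatty acid enzymes had 78.4 ± 12.3 T>C RPM (SD, n = 3) with dCBP-30 against 47.2 ± 7.50 with DMSO at 2 h, 26.0 ± 2.79 against 49.3 ± 6.31 at 6 h and 19.4 ± 0.937 against 90.1 ± 9.88 at 24 h. The sterol enzymes had 68.7 ± 10.2 against 68.5 ± 3.79, 51.8 ± 3.29 against 71.9 ± 2.56 and 41.0 ± 5.67 against 103.7 ± 3.96. With so few enzymes per branch, and FASN and SCD giving most of the fatty acid sum, the branches were not tested against each other. In total reads the sums at 24 h were 418 ± 14.5 against 1205 ± 91.4 RPM for the fatty acid and 770.0 ± 23.2 against 1497 ± 78.5 for the sterol enzymes.

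The DMSO libraries themselves moved over time in new RNA. Comparing DMSO at 24 h with 2 h, the T>C reads of IDI1, FDPS, SCD and FADS1 were called higher (log2 1.26, 1.28, 1.08 and 1.69; edgeR adjusted p = 0.0219, 0.0160, 0.000526 and 0.0190), 4 of 27 members beside 2.52% of all genes higher and 0.00992% lower, with 0 members lower (0 at an unadjusted p under 0.05). The median of all genes was 0.49 in the same comparison, and when scaled by T>C reads 0 members were called, with the 4 at 0.81, 0.83, 0.63 and 1.23. In total reads 0 members were called in vehicle at 24 h by edgeR (7 at an unadjusted p under 0.05), beside 0.0326% of all genes lower and 0.0245% higher, SCD having the smallest adjusted p (0.55, 0.0210). No member was called between DMSO at 6 and 2 h in either measure, with 2 at an unadjusted p under 0.05 in T>C reads and 0 in total reads; DESeq2 was not run on the vehicle comparisons. The comparisons of dCBP-30 each used the DMSO libraries of their own time. The effect of dCBP-30 on T>C reads itself differed between 24 and 2 h for 12 members, all downward, beside 23.0% of all genes lower and 3.02% higher, and between 6 and 2 h for 4 members, all downward, beside 7.35% and 0.684%. INSIG1, IDI1, FASN and SCD were among both, and the 6 h difference of IDI1 was lost in 12 of the 18 fits that left out 1 library.

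Other genes around the pathway were read from 5 lists with 55 genes in all, against the same backgrounds. Over all 5 lists 1 was called lower and 0 higher in T>C reads at 2 h, beside 7.14% and 1.66% of all genes tested. There 8 had an unadjusted p under 0.05 by edgeR, and DESeq2 called 0 higher. At 6 h 10 went down and 0 up (15 at an unadjusted p under 0.05), beside 17.1% and 2.36% of all genes. At 24 h 11 went down and 1 up, beside 31.2% and 2.18%. With DESeq2 scaled by T>C reads 6 went down and 1 up at 6 h, and 8 down and 5 up at 24 h. Of the 8 genes of SREBP processing and turnover, RNF145 and RNF139, ubiquitin ligases of the endoplasmic reticulum membrane, were lower at 6 h (log2 -1.37 and -1.02; adjusted p = 0.000933 and 0.0349), and ERLIN1, a membrane protein of the endoplasmic reticulum, was lower at 24 h in T>C reads (-1.89, 0.000410) and total reads (-1.04, 8.45e-05). Of the 12 genes of the isoprenoid branches, 3 were lower at 6 h, and 5 were lower and 1 higher at 24 h. COQ2, a prenyltransferase of ubiquinone synthesis, was among those lower at 6 h (-1.94). PDSS1, which helps make the ubiquinone side chain, had the lowest value of the list at 24 h (-3.97, 8.28e-08), while GGPS1, which makes geranylgeranyl diphosphate from the FDPS product, was higher (1.59, 0.00404). Total reads of PDSS1, ICMT and COQ2 were lower at 24 h as well (-2.90, -1.46 and -1.26).

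For the next 3 lists, too, the background in T>C reads was 7.14%, 17.1% and 31.2% of all genes lower at 2, 6 and 24 h. Of the 11 tested genes of sterol transport, storage and the LXR receptors, TMEM97 was the 1 called in T>C reads at 6 h (log2 -2.09, adjusted p = 2.44e-05) and at 24 h (-3.67, 5.87e-10). Its total reads were lower at 24 h (-3.35, 1.01e-13), when those of OSBPL2 were higher (1.28, 1.29e-06). TMEM97 encodes a sterol-binding membrane protein. Of the 16 genes of fatty acid supply, elongation and activation, ELOVL5 and ME1 were lower at 6 h (-1.85 and -1.42) and HACD2 and HACD3 at 24 h (-1.49 and -1.23). At both times 2 of the 16 were thus called lower, beside 17.1% and 31.2% of all genes. In total reads 0 of the 16 were called at 24 h by edgeR and by DESeq2, with 9 at an unadjusted p under 0.05. Over all genes 16.1% were lower and 15.0% higher there. Of the 5 tested genes of glycerolipid synthesis, LPIN1, a phosphatidate phosphatase, was lower in T>C reads at each time (-2.50, -2.27 and -1.39). DGAT2, which makes triglyceride, was lower at 6 h (-2.99, 5.09e-05) and had 0 T>C reads in the 3 dCBP-30 libraries of 24 h against 2.92 to 5.003 RPM in DMSO. Against a floor of 3 reads per library this was at least 25.4-fold lower. Total DGAT2 at 24 h was 1.91 against 66.0 RPM (-5.11 ± 0.19, 2.68e-17).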

How the data were processed

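The deposited SLAM-seq tables of MM1.S cells were used, 1 per library, with a row per annotated 3′ untranslated region. Per the labels and the study's methods, reads were trimmed with Trim Galore and mapped and counted on hg38 with Slamdunk. The study's methods list a forward QuantSeq kit, which keeps strand, and default Slamdunk settings. Whether these counted by strand is not given in the sources used here. The deposited values used were whole-number counts of reads and of T>C reads. Of 97466 rows, 89088 (91.4%) matched GENCODE 44 transcripts, and each of the resulting 19593 genes was represented by the transcript that drew most reads in all libraries combined. Unmatched rows held 0.0789% to 0.199% of the reads of a library and were left out.

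T>C counts of the 18 labelled libraries were fitted with edgeR 4.0.16 (quasi-likelihood, robust, R 4.3.3) on library sizes of total reads times TMM factors, and total counts likewise, after filterByExpr with a minimum count of 10. P-values were adjusted by the Benjamini-Hochberg method over all genes tested, and a call needed an adjusted p under 0.05 and a change of over 2-fold. Differences between time points were called on the adjusted p alone. SE are on the log2 scale. Groups came from the labels. With 3 against 3 libraries an exact permutation test of a single value cannot go below 0.1, so none is given for members.

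The members, gene lists and rules were chosen with earlier results of these data known. Values in every library are given for the regulators, STARD4, members called in T>C reads at 2 h and members called in both measures at 24 h, and for TM7SF2, which was added because it was the 1 member called higher in total reads. Members called in 1 measure and the rest are given by their fits, and context genes by up to 3 called per list, time and direction. Alternatives were scaling by T>C reads, no TMM factors, DESeq2 1.42.0, each time point alone, subtraction of the unlabelled background, reads summed over transcripts, other filters and thresholds, a replicate block, and fits without 1 library at a time. Some items are not reported here.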

Additional observations from a re-analysis of the deposited data

Results flagged for a closer look

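The effect of dCBP-30 on T>C reads differed between time points for 12 members at 24 h against 2 h and for 4 at 6 h against 2 h, by edgeR's test of the difference in log2 fold change (over all genes 23.0% were lower and 3.02% higher at 24 h, and 7.35% and 0.684% at 6 h). All of these differences were downward, and they share the 2 h libraries. At 24 h against 2 h the regulators SREBF1 and INSIG1 differed by -1.63 and -2.81. Among sterol enzymes the difference was -2.53 for ACAT2, -2.12 for MVK, -2.55 for IDI1, -3.201 for FDPS, -3.28 for EBP and -2.55 for DHCR7. Among fatty acid enzymes it was -4.16 for FASN, -1.71 for ACLY, -2.60 for SCD and -2.03 for FADS1. The value for FASN spans a rise at 2 h and a decrease at 24 h.

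At 6 h against 2 h INSIG1 differed by -1.56, IDI1 by -1.47, FASN by -2.85 and SCD by -1.16. Scaled by T>C reads, the 24 h differences of SREBF1, ACAT2, MVK and FADS1 no longer passed the test (adjusted p = 0.221, 0.116, 0.0866 and 0.146), nor did the 6 h differences of IDI1 and SCD (0.187 and 0.0517). Without TMM factors the 24 h differences of SREBF1, ACAT2 and FADS1 were lost (-1.22, -2.11 and -1.62; adjusted p = 0.120, 0.0666 and 0.0734), as was the 6 h difference of IDI1 (-1.26, 0.134). The 6 h difference of IDI1 was also lost in 12 of the 18 fits that left out 1 library, with adjusted p of 0.0542 to 0.156, the highest without the DMSO library of replicate 1 at 2 h (-1.21). The 24 h difference of SREBF1 was -1.36 (adjusted p = 0.0767) without the dCBP-30 library of replicate 1 at 2 h and -1.27 (0.0778) without that of replicate 1 at 24 h. That of ACAT2 was -1.82 (0.129) without the former library, -3.59 without the latter and -2.11 (0.0572) without the dCBP-30 library of replicate 2 at 24 h, and with reads summed over transcripts its adjusted p was 0.114. That of FADS1 was -1.74 (0.0569) without the dCBP-30 library of replicate 3 at 2 h and -1.77 (0.0663) without the DMSO library of replicate 1 at 24 h.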

How the results depend on the processing

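At 2 h the count of members lower in T>C reads went from 2 to 1 when scaled by T>C reads, without TMM factors, with DESeq2 on T>C size factors, with each time point fitted alone and with reads summed over transcripts, FDFT1 being the 1 lost. The count higher went from 1 to 2, by TM7SF2, without TMM factors, with DESeq2 on either size factor, with summed transcripts and at an adjusted p under 0.1. At 6 h 3 of 5 stayed lower when scaled by T>C reads, without TMM factors and with DESeq2 on T>C size factors, without FASN and SCD, and at 24 h 8 of 15 stayed lower under the last of these. Scaling by T>C reads left 0 members higher in DMSO at 24 h against 2 h and 2 of 4 differences at 6 h. In total reads at 24 h 8 members were lower and 3 higher without TMM factors, where FDPS at 6 h turned to 0.0315 and ACLY at 24 h to 0.23. The cause of these changes was not tested. Leaving out 1 library at a time, members lower in T>C reads numbered 1 to 2 at 2 h, 5 to 6 at 6 h and 14 to 18 at 24 h, and those higher 1 to 2 at 2 h and 0 later. The differences numbered 3 to 4 at 6 h and 10 to 13 at 24 h, the DMSO increases 1 to 5 (1 without the DMSO library of replicate 1 at 2 h or at 24 h), and in total reads members lower numbered 0 to 1 at 6 h and 12 to 13 at 24 h. The 1 at 6 h was SREBF1, at -1.07 without the dCBP-30 library of replicate 3.

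Over all genes, counts higher in T>C reads at 6 h went from 238 to 517 (T>C scaling), 525 (no TMM), 669 (DESeq2 on T>C size factors) and 363 (adjusted p under 0.1), and lower from 1720 to 1146 (DESeq2 on T>C size factors). At 24 h they went from 220 higher to 759, 602 and 973 under the first 3 of these and 127 with the background subtracted, and from 3147 lower to 1517, 1763 and 1366. At 2 h 167 higher became 265 at an adjusted p under 0.1. In total reads 56 higher at 2 h became 91 (no TMM), 86 (DESeq2), 36 (each time alone) and 88 without the DMSO library of replicate 3 at 2 h, 916 higher at 6 h became 1765 without TMM, and 1972 lower and 1839 higher at 24 h became 1061 and 3686.

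Replicate numbers did not pair the libraries (same-number correlations of -0.0437 to 0.0174, with 1 of 9 highest for its own number). With the replicate block the members lower in T>C reads numbered 2, 5 and 16 at 2, 6 and 24 h, those higher at 2 h 1, and those lower and higher in total reads at 24 h 13 and 1. The 6 h differences numbered 3 with the block, without IDI1 (-1.48, adjusted p = 0.0527).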
